A study of Mus musculus with 6 samples.

Results

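Schwann cell and myelin genes were examined as a set of 8 named genes, Sox10, Foxd3, Egr2, Erbb3, Cdh19, S100b, Mbp and Pmp22, taken by symbol from a table of 23718 genes, in which all 8 were listed. RNA had been sequenced from Gli1+ or Axin2+ cells cut by laser from frozen sections of the incisor of mice aged 1 month. The mesenchymal stem cell (MSC) group held 3 libraries from Gli1-CreER;tdT mice and the transit amplifying cell (TAC) group 3 libraries from Axin2-CreER;tdT mice. The labels give C57BL/6, whereas the methods speak of a mixed background and name the lines in full as CreERT2 drivers with a Rosa26 fs-tdTomato reporter. In both genotypes a tamoxifen-inducible Cre switches on a red fluorescent reporter, from the Gli1 or the Axin2 promoter, and tissue was taken 1 day after tamoxifen, so all 6 libraries share the reporter and the drug. The methods count as many mice as libraries in each group without tying a library to a mouse, so the p-values below measure only the spread between these libraries.

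Schwann cells are the glia of peripheral nerves. They arise from the neural crest through precursors that travel along axons, and they either wrap single axons in myelin or ensheath bundles of thin fibers without it. The transcription factor Sox10 is needed throughout the lineage, Foxd3 acts in the neural crest and in early glial precursors, and Egr2 (Krox20) switches on the myelin program. Axons control Schwann cell number and myelination through neuregulin, which the cells receive with the receptor pair ERBB3 and ERBB2. In the mouse incisor, nerve-associated glia have been traced into dental pulp cells and odontoblasts. The comparison of MSC with TAC here asks how much transcript of these genes each captured region held. In bulk samples of this kind, fewer cells of a type and less RNA per cell cannot be told apart.

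Values are in the deposited normalized unit, an estimated read number plus 1, scaled per library, and can be compared between libraries but not between genes. Replicate 3 of each group was unlike replicates 1 and 2. Estimated reads numbered 20203159 to 25567244 in replicates 1 and 2 of both groups, 59793645 in MSC replicate 3 and 108156380 in TAC replicate 3. Genes without an estimated read made up 6.89% to 8.36% of the table in replicates 1 and 2. That share was 43.1% for the third MSC library and 28.3% for the third TAC library. Mitochondrial ribosomal RNA took 8.28% to 9.07% of the reads in replicates 1 and 2, 0.236% in MSC replicate 3 and 0.112% in TAC replicate 3. Of 2231 genes with 30 to 100 estimated reads in both MSC replicates 1 and 2, 65.5% had none in MSC replicate 3, and of 2152 such genes in TAC replicates 1 and 2, 36.6% had none in TAC replicate 3. S100b, Egr2 and Cdh19 lie in this range in MSC. Each difference of the 8 genes is therefore given for all libraries, for replicates 1 and 2, and for replicate 3, where a group has 1 library and no test. The driver genes themselves overlapped between the groups, with Gli1 at 245 to 422 in MSC and 141 to 396 in TAC and Axin2 at 12.01 to 58.3 in MSC and 34.1 to 63.9 in TAC. The proliferation genes Mki67 and Top2a had higher means in TAC, with Mki67 at 136.9, 130.1 and 41.5 in MSC and 593, 629.7 and 122 in TAC, and Top2a, whose groups did not overlap, at 27.5 to 42.6 in MSC and 74.2 to 240.4 in TAC. Their differences were 1.97 and 2.12, with limma adjusted p-values of 0.361 and 0.148 (0.0442 and 0.0505 with the replicate block). Each was under 0.05 in only 4 of 18 alternative fits.

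Sox10 (chromosome 15, 79154913 to 79164490, minus strand, mm10) had the lowest p of the 6 genes of the set that were tested. The MSC libraries, in the order of their replicate numbers, held 5.62, 3.80 and 3.49, from 210, 130 and 523 estimated reads. In TAC replicates 1 and 2 it was 0.109 and 0.504, from 4 and 20 reads. In TAC replicate 3 there was no read, for a limit of 0.0152 (3 reads) if sampling were the only noise. Genes were missing from that library more often than sampling gives, so this zero does not bound the level. The lowest MSC library thus lay above the highest TAC library. MSC averaged 4.30 ± 1.15 (SD, n = 3), which was 20.9 times the TAC average of 0.206 ± 0.263 (SD, n = 3). With a library left out the ratio ran from 14.04, without TAC replicate 3, to 75.97, without TAC replicate 2. TAC replicate 2 held most of the TAC reads, so the higher ratio rests on only 4 reads in TAC. On the log2(value + 1) scale, which understates the change of such low genes, the difference of TAC minus MSC was -2.14 (SE 0.50), with an unadjusted p of 0.00333 and an adjusted p of 0.156 in limma. Replicates 1 and 2 gave -2.13 and replicate 3 gave -2.16, and since TAC was near 0 in each set these values mostly carry the MSC level. With a pseudocount of 0.1 in place of 1 the difference was -4.19, and with 10 it was -0.48.

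Foxd3 (chromosome 4, 99656299 to 99658622, plus strand) had 6, 22 and 552 estimated reads in the MSC libraries, for values of 0.187, 0.666 and 3.68. In TAC it had 1 read in replicate 1 and none in replicates 2 and 3. The groups did not overlap, but most of the MSC signal came from MSC replicate 3, and no fold is given against a group that held 1 read in all. Its mean fell short of the level required for testing. In the fit without a filter on low values the difference was -1.04 (SE 0.48, limma adjusted p 0.670). It was smaller in the first 2 replicates, at -0.44, than in the third, at -2.22.

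Egr2 (chromosome 10, 67535475 to 67542188, plus strand) did not follow Sox10. Its values were 1.41 and 2.03 in MSC replicates 1 and 2. MSC replicate 3 had no read, for a limit of 0.0266 (3 reads) if sampling were the only noise. Most genes with similar read numbers in MSC replicates 1 and 2 had none in that library, so this zero does not bound the level. In TAC the values were 1.27, 1.05 and 2.29. The highest TAC value exceeded every MSC value, while the other 2 TAC values lay below MSC replicates 1 and 2. The difference was 0.35 (SE 0.60, limma adjusted p 0.886). Replicates 1 and 2 gave -0.32 and replicate 3 gave 1.71, and the difference became -0.12 without MSC replicate 3.

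**Figure D1:**
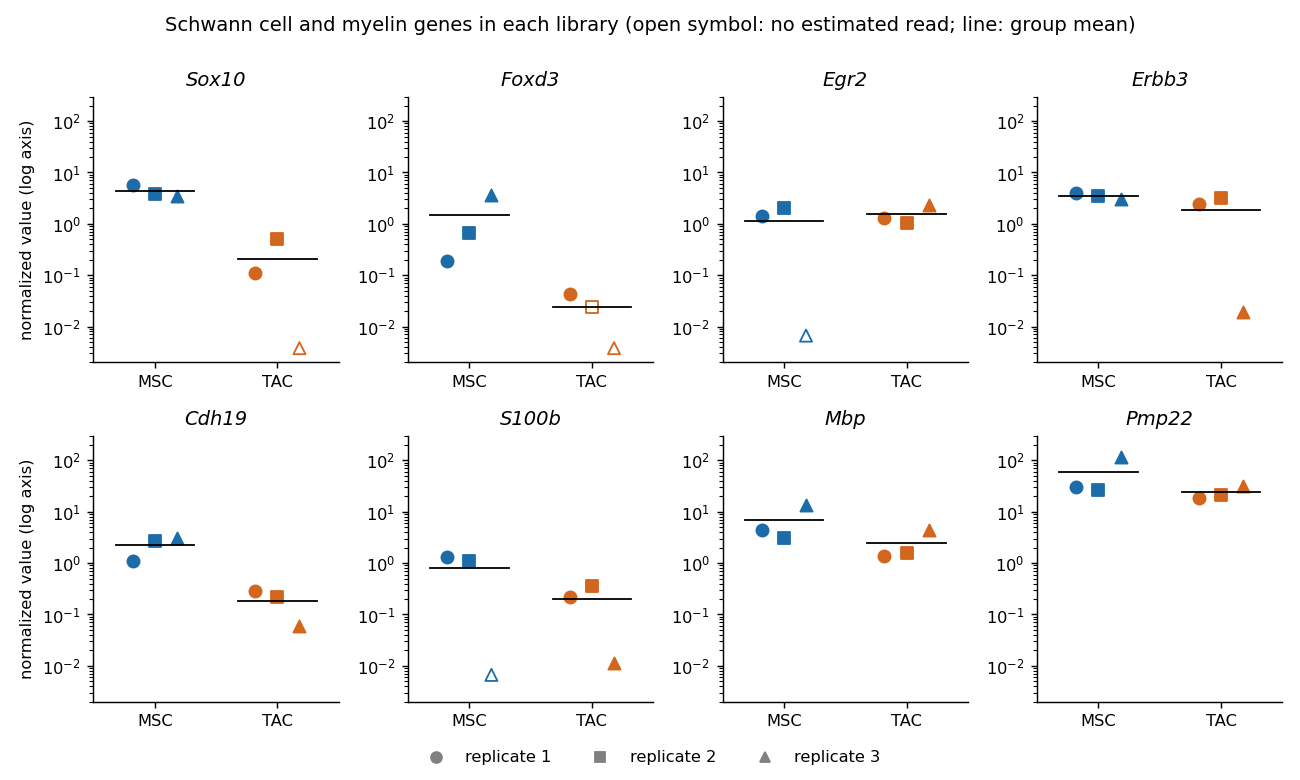
Normalized value (log axis) of each of the 8 genes in the 3 MSC (blue) and 3 TAC (orange) libraries, with circles, squares and triangles for replicates 1, 2 and 3, open symbols where there was no estimated read and a line at the group mean. Sox10, Foxd3 and Cdh19 show MSC libraries that all lie above the TAC libraries, and the triangles of replicate 3 often lie apart from the other symbols.

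Erbb3 (chromosome 10, 128567523 to 128589652, minus strand), the neuregulin receptor of Schwann cells, which many epithelia also express, held 4.05, 3.48 and 3.01 in the MSC libraries. In TAC replicates 1 and 2 it was 2.45 and 3.19, close to MSC, and in TAC replicate 3 it was 0.0190, from 4 reads. The groups overlapped, since TAC replicate 2 lay above MSC replicate 3. The difference of -0.87 (SE 0.67, limma adjusted p 0.679) came from -0.32 in the first 2 replicates and -1.98 in the third, and became -0.24 without TAC replicate 3.

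Cdh19 (chromosome 1, 110888326 to 110977584, minus strand), a cadherin typical of Schwann cell precursors and of nonmyelinating glia, was 1.09, 2.75 and 3.03 in MSC and 0.285, 0.216 and 0.0607 in TAC replicates 1, 2 and 3. As with Sox10, every MSC library lay above every TAC library. MSC averaged 2.29 ± 1.05 (SD, n = 3), 12.3 times the TAC average of 0.187 ± 0.115 (SD, n = 3). The TAC values rested on 12, 8 and 15 estimated reads. The difference was -1.42 (SE 0.51), with an unadjusted p of 0.0258 and an adjusted p of 0.336 in limma, made up of -1.17 for the first 2 replicates and -1.93 for the third. With a pseudocount of 0.1 it was -3.03.

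S100b (chromosome 10, 76253853 to 76261159, plus strand) encodes a calcium-binding protein used as a general Schwann cell marker. It was 1.33 and 1.10 in MSC replicates 1 and 2 and had no read in MSC replicate 3. In TAC replicates 1, 2 and 3 it was 0.219, 0.360 and 0.0114, the last from 2 reads. Replicates 1 and 2 of MSC were above all TAC libraries, while the third libraries of both groups lay within the limit of 3 reads and could not be ordered. Its mean was too low for testing, and the fit without a filter gave -0.52 (SE 0.36, limma adjusted p 0.792). The first 2 replicates gave -0.78, and the third gave 0.0067 from libraries within the limit of 3 reads. The 3' end of S100b overlaps Dip2a on the opposite strand, and since the use of strand in counting is not given in the sources used here, reads of the pair may be mixed.

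Mbp, on chromosome 18, encodes myelin basic protein, which compacts the cytoplasmic faces of the sheath, and the same locus also makes golli transcripts in cells without myelin. It was 4.45, 3.13 and 13.5 in MSC and 1.36, 1.58 and 4.45 in TAC replicates 1, 2 and 3. Replicate 3 was the highest library of each group, so the groups overlapped although each TAC library lay below the MSC library with its number. The difference was -1.10 (SE 0.68, limma adjusted p 0.588). The first 2 replicates gave -0.94 and the third gave -1.42. It was -0.56 without MSC replicate 3.

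Pmp22 (chromosome 11, 63128982 to 63159547, plus strand) encodes a membrane protein of compact myelin that is also made by many cells outside nerves as a growth arrest gene. It was 30.9, 26.7 and 118 in MSC and 18.2, 21.2 and 32.4 in TAC replicates 1, 2 and 3. MSC replicate 3 stood far above the other 5 libraries, and TAC replicate 3 lay above MSC replicates 1 and 2. The difference of -0.96 (SE 0.58, limma adjusted p 0.581) shrank to -0.29 without MSC replicate 3. Replicates 1 and 2 gave -0.53 and replicate 3 gave -1.84.

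**Figure D2:**
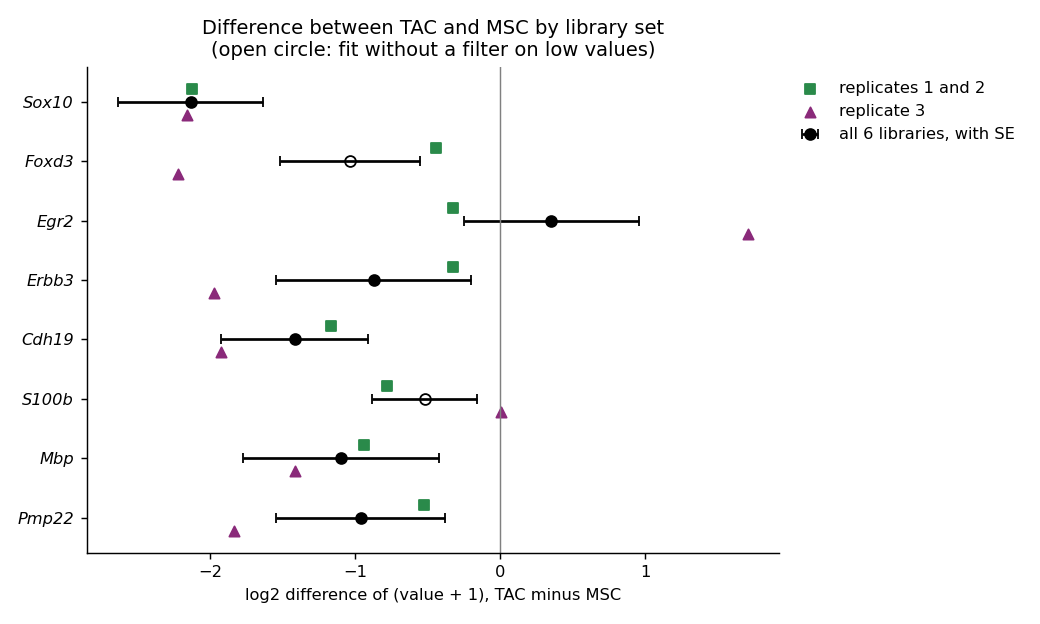
Log2 difference of (value + 1), TAC minus MSC, for each gene over all 6 libraries (black circles with the SE, open for Foxd3 and S100b, which come from the fit without a filter on low values), in replicates 1 and 2 (green squares) and in replicate 3 (purple triangles). Egr2 lay on opposite sides of 0 in the library sets, and the other tested genes lay below 0 in both, with Sox10 at -2.13 and -2.16.

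Over the whole table, 65 of 15391 tested genes passed an adjusted p of 0.05 in limma, or 0.422%, and 0.383% did so with TAC lower. Of the 8 genes, 6 were tested and 0 passed, and 2 of them, Sox10 and Cdh19, had an unadjusted p under 0.05. Both were lower in TAC, as were 6.43% of all tested genes at that level. Groups that did not overlap, with TAC lower, were found for 3 of the 8 genes (Sox10, Foxd3 and Cdh19) and for 8.71% of the 23718 listed genes. A gene without a read in MSC replicate 3 has the value 0.00666 there, under the lowest values of TAC replicates 1 and 2 (0.0219 and 0.0240). Such genes, 43.1% of the table with S100b and Egr2 among them, could not be counted here, which lowers the background share. With TAC higher they were found for 0 of the 8 genes and for 8.9% of the listed genes. The TAC library was lower in all 3 same-numbered pairs for 6 of the 8 genes, all but S100b and Egr2, against 27.7% of listed genes. The mean log2 value was lower in TAC for 7 of the 8 genes against 51.1%. The lowest value was higher in MSC than in TAC for each replicate number, so a pair without a read in either library counts as lower in TAC. Nrg1, without a read in either library of pairs 1 and 3, was counted so, and both background shares include such ties. In replicates 1 and 2 alone, Sox10, Mbp, Cdh19 and Pmp22 passed with limma adjusted p-values of 0.000280 to 0.0150, in a fit where 44.2% of all genes passed, 24.2% with TAC lower, and whose error is only the spread between replicates 1 and 2. A limma interaction term for the library set passed for 3 of the 6 tested genes, Erbb3, Pmp22 and Egr2, and for 57.2% of all genes, so the share of the set was no higher than the background. Its error also comes only from replicates 1 and 2. With the replicate number as a block, where 1.49% of all genes passed, the lowest adjusted p of the set was 0.0695 for Sox10.

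To compare the genes with each other, estimated reads were divided by the kilobases of annotated exon and by the estimated reads of the library, as in an RPKM. Pmp22 was the most abundant of the set on this scale, with MSC libraries averaging 56.01 ± 60.8 (SD, n = 3) and TAC libraries 21.1 ± 10.8 (SD, n = 3), and its lowest library exceeded the highest of any other gene. In MSC, Sox10 followed at 2.71 ± 0.534, then Mbp at 1.85, Foxd3 at 1.52, Erbb3 at 1.13, Cdh19 at 1.10, S100b at 0.914 and Egr2 at 0.568, and below Pmp22 the ranges of neighbors in this order overlapped. In TAC the order below Pmp22 was different, with Egr2 at 0.945, Mbp at 0.628, Erbb3 at 0.552, S100b at 0.216, Sox10 at 0.109, Cdh19 at 0.0737 and Foxd3 at 0.00561. Neighbors overlapped again, except that Cdh19 lay above Foxd3 in every library. The means and their order in both groups depended on replicate 3. In TAC replicates 1 and 2, Erbb3 (0.824) came first below Pmp22, before Egr2 (0.595), S100b (0.318) and Mbp (0.303). Without the third libraries the mean of Pmp22 was 20.9 in MSC and 14.8 in TAC. Foxd3 was at 0.118 and 0.469 per length in MSC replicates 1 and 2 and at 3.97 in replicate 3, where it and Mbp (4.02) lay above Sox10 (2.87).

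**Figure D3:**
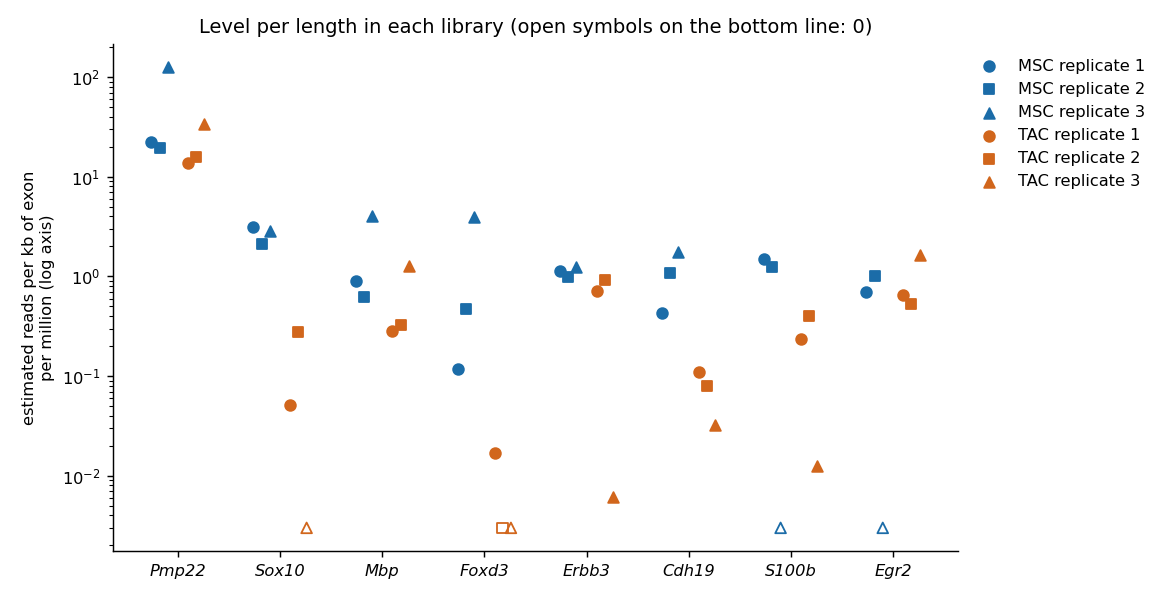
Level per length, as estimated reads per kilobase of exon scaled to the library total (RPKM-type, log axis), for the 8 genes, ordered by their MSC mean, with blue MSC and orange TAC symbols for replicates 1, 2 and 3 and open symbols at the bottom where the level was 0. Pmp22 lies above all others in every library, from 13.8 to 126.

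The genes of the set did not share a single pattern over the 6 libraries. Mbp and Pmp22 had a Pearson correlation of 0.968 and Sox10 and Cdh19 one of 0.839, whereas Sox10 and Mbp had 0.529 and Egr2 was negative with every gene of the set but S100b. These are descriptions over 6 libraries that share the split between library sets, and they include genes too low for testing. The tested genes most like Sox10, predicted genes left aside, were Nfatc4, Zmat1, Unc13b, Tns2 and Rara, with correlations from 0.990 to 0.995. Those most like Mbp were Atg10, Map1s, Ccdc24, Samd9l and Parvg, from 0.994 to 0.997. Neither short list held another of the 8 genes. Parvg, for example, was 2.77, 2.06 and 14.3 in MSC and 0.482, 0.791 and 2.66 in TAC, the shape of Mbp with its peak in MSC replicate 3.

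The wider genes of the pathway were read from lists that include the 8 genes. Of 17 genes for myelin proteins and lipid enzymes, 13 were listed, 9 tested and 0 passed the adjusted threshold, with 1 lower in TAC at an unadjusted p under 0.05. The median difference of those tested was -0.94, beside 0.026 over all tested genes, and 6 were lower and 3 higher in TAC. The 3 higher were Cnp, a myelin enzyme that many cells also make, at 0.73, Prx, the periaxin of Schwann cells, at 0.64 and Drp2, its dystroglycan-complex partner, at 0.08. Their limma adjusted p-values were 0.792, 0.882 and 0.970, and each was below 0 under some alternative (to -0.27, -0.64 and -0.10). Cnp and Prx were lower in TAC in replicates 1 and 2, at -0.27 and -0.37. Replicate 3 gave 2.75 and 2.64, with 3 and 0 estimated reads in MSC. Drp2 was at 0.23 in replicates 1 and 2 and at -0.22 in replicate 3. Mal, a proteolipid of myelin and of epithelial membranes, was 6.32, 4.49 and 49.6 in MSC and 0.306, 0.168 and 0.0152 in TAC. Its difference of -3.45 (SE 0.88) had an unadjusted p of 0.00538 and an adjusted p of 0.180 in limma. Gjc3, a glial connexin, had 16, 9 and 257 estimated reads in MSC and 0 in each TAC library. Gjb1, Ugt8a, Fa2h and Gal3st1 were not analysed here.

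TAC replicate 3, the deepest library, held 1172 estimated reads of Mbp and 1701 of Scn7a, a sodium channel gene of nonmyelinating glia. It held none of Sox10, Foxd3 or Gjc3, 3 of Mal and 4 of Erbb3. Of these only Erbb3 was above 20 reads in TAC replicates 1 and 2, and of 2639 genes with 100 to 300 reads in both of those libraries 13.5% had none in TAC replicate 3.

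Of the 17 genes for Schwann cell signaling and adhesion, 10 were tested, with a median difference of -1.46. None passed the adjusted threshold in limma, and 4 were lower in TAC at an unadjusted p under 0.05. Nfasc, the neurofascin of nodes and paranodes, was 207, 214 and 60.7 in MSC and 26.4, 30.5 and 7.96 in TAC, a difference of -2.83 (SE 0.65, adjusted p 0.150). Both library sets gave nearly this size, -2.85 for the first 2 replicates and -2.78 for the third. Ncam1, which mesenchymal cells also express, was 275, 265 and 64.1 in MSC and 93.3, 89.8 and 23.6 in TAC, with groups that overlapped. With the replicate block Nfasc and Ncam1 passed in limma, with adjusted p-values of 0.0270 and 0.0359. Each passed in only 4 of 18 alternatives, the block among them. Gldn, a ligand for neurofascin, differed by -2.07 and L1cam, an adhesion protein of axons and nonmyelinating glia, by -1.81, with adjusted p-values of 0.287 and 0.231 and groups that did not overlap. Ngfr, the p75 neurotrophin receptor, was 14.9 to 23.99 in MSC and 14.9 to 27.7 in TAC (difference 0.11, adjusted p 0.950).

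Of the neuregulin and ERBB genes 8 of 9 were tested, 0 passed the adjusted threshold in limma and 0 had an unadjusted p under 0.05. Erbb2, the partner of Erbb3, was 39.4, 39.5 and 17.04 in MSC and 29.4, 24.8 and 20.3 in TAC. Among the ligands, Nrg3 had values of 12.7 and 18.2 for MSC and 0.394 and 0.504 for TAC in the first 2 replicates, with no read in replicate 3 of either group. Its difference was -2.32 (SE 1.11, adjusted p 0.472), and -3.49 without the replicate 3 libraries. Nrg1, the axonal ligand, had 16 estimated reads in MSC replicate 2 and 0 in the others.

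Of the 12 transcription factors of the lineage 6 were tested, with Sox10 lower in TAC and 5 higher, and none passed the adjusted threshold. Their median difference was 0.09 in replicates 1 and 2 and 0.93 in replicate 3. Egr2, counted as higher, was at -0.32 in replicates 1 and 2. Tfap2a, a neural crest factor that ectoderm also expresses, was 35.5, 29.1 and 30.1 in MSC and 44.8, 47.1 and 67.4 in TAC, with groups that did not overlap (difference 0.72, limma adjusted p 0.380). Pou3f1, which acts with Sox10 before myelination, had 28 and 34 estimated reads in MSC replicates 1 and 2 and 0 in all other libraries. Pax3 and Tfap2b were not analysed here.

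**Figure D4:**
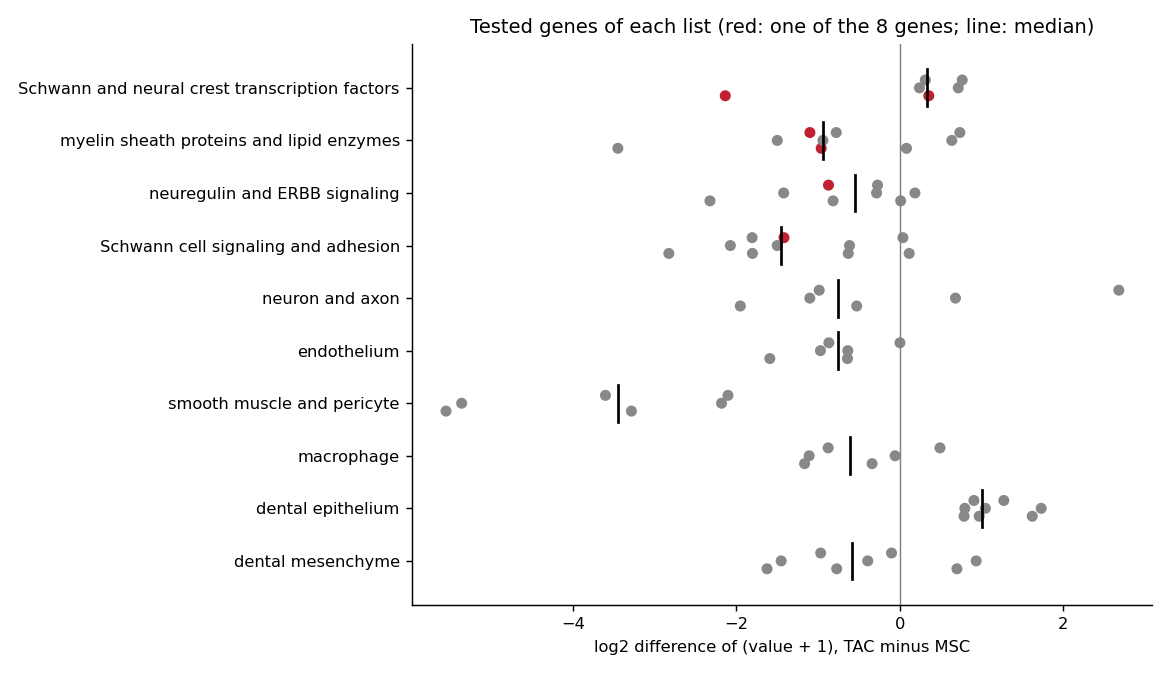
Log2 difference of (value + 1), TAC minus MSC, of each tested gene in the 4 lists around the Schwann lineage and in 6 lists for other cells, with the 8 genes in red and a line at each list's median. The list of Schwann cell signaling and adhesion has its median at -1.46 and that of smooth muscle and pericytes at -3.45, and all 8 dental epithelium genes lie above 0, of which Amelx and Enam turned below it under some alternatives.

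Markers of other cells that the captured tissue could hold were read beside these values. All 6 smooth muscle and pericyte markers were lower in TAC, 5 past the adjusted threshold in limma (4 with the replicate block, 0 without any single library of replicates 1 and 2), with a summed value of 705 to 1412 in MSC and 62.4 to 77.7 in TAC. Myh11 and Acta2, contractile proteins of smooth muscle, differed by -5.56 and -5.36, Tagln by -3.60 and the pericyte gene Rgs5 by -3.29. Of 6 endothelial markers 5 were lower in TAC, with sums of 148 to 210 in MSC and 74.7 to 95.3 in TAC, and 0 passed. The groups did not overlap for Pecam1, Cdh5 and Tie1, at -1.59, -0.97 and -0.64. Of 6 macrophage markers 5 were lower, with overlapping sums, and 0 passed, with Ptprc at -1.17 and Csf1r at -0.88. All 8 dental epithelium markers had higher mean log2 values in TAC over the 6 libraries, although Amelx and Enam turned lower under some alternatives (to -0.67 and -0.71), 0 past the adjusted threshold and 1 at an unadjusted p under 0.05, while their sums overlapped, at 299.7 to 3658 in MSC and 2149 to 3338 in TAC, of which Amelx made 26.9% to 69.3%. Cdh1, Epcam, Krt5 and Krt14 were 0.79 to 1.73 higher on the log2 scale, without overlap of the groups. Of 15 neuron and axon markers 14 were listed and 6 tested, of which 4 were lower and 2 higher in TAC. Sums over the 14 were 16.3 to 24.3 in MSC and 23.9 to 27.0 in TAC, and without Tubb3, which made up to 69.1% of a sum, they were 16.1 to 21.1 in MSC and 8.33 to 9.93 in TAC. The axon growth gene Stmn2 was 2.50, 1.62 and 6.87 in MSC and 0.0219, 0.192 and 0.0227 in TAC, and Tubb3 was 3.14, 3.86 and no read in MSC and 17.0, 18.6 and 14.1 in TAC. Syp, a synaptic vesicle protein, differed by -0.99, also without overlap. The sensory neuron channel Scn10a had at most 2 reads in 5 libraries and 286 in TAC replicate 3. Of 6 melanocyte markers, for cells that also express Sox10, Tyrp1 and Mlana were not analysed here and Tyr, Dct and Pmel reached at most 33.7 estimated reads. Mitf, which other cells express, was 1.77 to 7.53. Of 5 oligodendrocyte markers 4 were not analysed here and Mog reached at most 20 reads. Among the 6 skeletal muscle markers 1, Tnnt3, was tested and 0 passed. The dental mesenchyme list had reads in all libraries, at sums of 2943 to 11890, of which Col1a1 made 52.8% to 93.9%, and at 1038 to 1389 in MSC and 689 to 743 in TAC without it. Of its genes 0 were past the adjusted threshold and 3 had an unadjusted p under 0.05. Of the 8 genes of that list 6 were lower and 2 higher in TAC. Lhx8, Pax9, Dlx1 and Vim differed by -1.63 to -0.77 and Msx1 by 0.70, all without overlap of the groups, and Col1a1 by 0.93 with overlap. The part of these cell types in the results for the 8 genes was not tested.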

How the data were processed

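RNA sequencing reads of 6 laser-captured samples (3 MSC, 3 TAC) were trimmed by the authors and aligned to mm10 with TopHat2 2.0.8, and the submitters' notes also name CASAVA 1.8.2 and Partek. The methods give RPKM, but the deposited values are a signal per gene that behaves as an estimated read number plus 1, divided by a size factor per library. The lowest value of a library was shared by genes of any length, and 83.6% to 96.6% of values up to 20 times the lowest were whole multiples of it within 0.1. Estimated reads were the value over the lowest value, minus 1, and no count model was used because the rest were not whole. The counting tool is not given in the sources used here. No listed gene stayed below 10 estimated reads in all 6 libraries.

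Limma 3.58.1 in R 4.3.3 was fitted, with a variance trend, to log2(value + 1) of the 15391 genes whose mean over the libraries was 1 or more, for TAC minus MSC, two-sided, with Benjamini-Hochberg adjustment over all of them and a threshold of 0.05. The fit was tested on simulated data. The planned test assumed RPKM-type values, and the same test on the log scale suits the unit found. Positions are from the table, 1-based on mm10, with the end lowered by 1, and exon lengths are from GENCODE release M21. Same-numbered samples deviated together from their group means (Pearson correlations 0.477, 0.465 and 0.517 across genes). MSC replicate 1 with TAC replicate 2 (0.462) and MSC replicate 2 with TAC replicate 1 (0.480) did so as much, so the numbers 1 and 2 are not shown to pair, and the replicate block mainly separates replicate 3 from the others. Replicates 1 and 2 of a group differed by more than sampling noise (median chi-square per gene 4.54 in MSC and 3.46 in TAC), which separate preparations of the same material could also do, and were counted separately as the labels list them. The 8 genes, the lists and the tests were chosen with earlier results of these data known. All 8 genes are described, and from the lists those genes past the threshold, up to 4 per list with groups that did not overlap and genes that define a cell type, except some that are not reported here. Scn7a, Ncam1, Ngfr, Erbb2, Nrg1, Nrg3, Pou3f1, Cnp, Prx, Drp2 and Scn10a were added after their values were seen. Likeness of pattern used the 5 highest correlations. Alternatives were other pseudocounts, filters, scalings, variance models, library sets and single libraries left out. Averaging replicates 1 and 2 was chosen after seeing the data.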

Additional observations from a re-analysis of the deposited data

Results flagged for a closer look

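The difference between TAC and MSC was compared between replicate 3 and replicates 1 and 2 by an interaction term in limma, where 57.2% of all tested genes had an adjusted p under 0.05. Among the 8 genes 6 were tested and 3 passed, a share no higher than that of all genes, so nothing particular to the set is read from it. For Erbb3 the difference in replicate 3 minus that in replicates 1 and 2 was -1.65 (adjusted p 0.00913), for Pmp22 it was -1.31 (adjusted p 0.000759) and for Egr2 it was 2.03 (adjusted p 0.00386). Erbb3 and Pmp22 were lower in TAC in both sets, and Egr2 was lower in replicates 1 and 2 and higher in replicate 3. These tests rest on the spread between replicates 1 and 2 of each group, and replicate 3 has 1 library a group.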

How the results depend on the processing

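Of the 8 genes, 0 passed the adjusted threshold over all 6 libraries, where 65 of all genes did. The count for the 8 genes was 4 with library weights, 4 in replicates 1 and 2 only and 1, Sox10, with the library set as a batch term, and 0 in every other alternative run, including each library left out in turn (0 to 0) and the replicate block, which changed no call for the 8 genes. With the filter at a mean of at least 10, only Pmp22 of the 8 genes was tested. Over all genes the count was 38 with a pseudocount of 0.1, 114 with quantile normalization, 29 without the variance trend, 7113 with library weights, 229 with the replicate block, 1814 with the batch term, 6796 in replicates 1 and 2 only, 10 with replicates 1 and 2 averaged, and 0 to 292 with a library left out. It was 0 without MSC replicate 1 or 2 or TAC replicate 1 or 2, with 1028 to 1367 genes at an unadjusted p under 0.05, and 292 and 36 without MSC and TAC replicate 3. Sox10, Mbp, Erbb3, Cdh19 and Pmp22 stayed lower in TAC in every alternative in which they were tested, and the adjusted p of Sox10 ran from 1.28e-06 to 1.00. Egr2 reversed to -0.30 with library weights, -0.32 in replicates 1 and 2 only and -0.12 without MSC replicate 3 (-0.12 to 0.67 with a library left out), and the value of S100b was 0.0067 in replicate 3, where 0 and 2 reads, both within the limit of 3 reads, give no direction. Replicate 3 had no read of S100b and Egr2 in MSC and none of Sox10 in TAC although these were the deepest libraries and replicates 1 and 2 held reads. Total depth thus does not give the precision for these genes. Foxd3 also had no read in TAC replicate 3, but with 1 and 0 reads in TAC replicates 1 and 2 it does not bear on this.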
